A study of Homo sapiens with 4 samples.

Results

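The genes described here are 10 genes of the interleukin-1 (IL-1) family and of receptors for related cytokines, namely IL1B, IL1RN, IL1R1, IL1RAP, IL18, IL6R, IL6ST, IL10RA, IL10RB and TNFSF13B. They were chosen by name, as the rows of the deposited count table whose Ensembl identifiers map to these symbols, and all 10 were found among its 20348 genes. TNFSF13B belongs to the TNF ligand family, so it is neither of the IL-1 family nor a receptor. The table comes from RNA sequencing of K562 and THP-1, established human lines from chronic myeloid leukemia in blast crisis and from acute monocytic leukemia. Each line was grown for 72 h with the solvent DMSO or with 100 nM periplocin, a plant cardiac glycoside, which gave the groups K562 DMSO, K562 periplocin, THP-1 DMSO and THP-1 periplocin. The labels call the solvent groups control blank. There was 1 library per group, so no value below has a spread between replicates, and every interval covers counting error only. The comparisons address how the drug changes transcript levels in each line and whether the lines respond alike.

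IL-1 beta and IL-18 are inflammatory cytokines that are made as inactive precursors and cut to their active form, mostly by monocytes and macrophages. IL-1 beta acts through the receptor IL1R1 with its partner chain IL1RAP, and the antagonist encoded by IL1RN occupies IL1R1 without recruiting that partner. IL-6 binds IL6R and signals through the shared chain IL6ST (gp130), IL-10 binds IL10RA with IL10RB, and TNFSF13B encodes BAFF, a survival factor for B cells that myeloid cells produce.

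The libraries held between 16381149 and 20622694 counts. Levels are given as counts and as CPM, the share of a library's counts scaled by TMM factors to a common library size, and 3 counts, taken as the floor below which no fold is given, correspond to between 0.152 and 0.177 CPM. The 10 genes together made up 208 CPM in untreated and 241 CPM in treated K562, and 1011 and 1381 CPM in untreated and treated THP-1. The line labels were checked against markers. All 7 erythroid markers of K562 lay above the floor in both K562 libraries, with a summed level of 2246 CPM in DMSO and 8366 CPM in periplocin against 268 and 259 CPM in THP-1. All 8 monocytic markers of THP-1 lay above the floor in both THP-1 libraries, at 1189 and 1992 CPM in sum against 302 and 249 CPM in K562. T cell, B cell and fibroblast markers summed to at most 8.85, 1.24 and 4.89 CPM in any library. Endothelial markers reached 408 and 636 CPM in THP-1, nearly all from PECAM1, which myeloid cells also express, and CDH5 was at 0 in all 4 libraries. In K562, 6 of the 7 erythroid markers were at least 2-fold higher with periplocin (median log2 ratio 1.75). In THP-1 the monocytic markers were mixed, with 4 intervals above equality, 4 below and a median of 0.13, and most of the difference in their sum came from PTPRC, a gene of leukocytes in general, at 458 CPM in DMSO and 1090.0 CPM in periplocin. The part of these differences in the values below was not tested. In bulk RNA a change in the number of cells of a kind and a change of RNA per cell cannot be told apart.

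**Figure D1:**
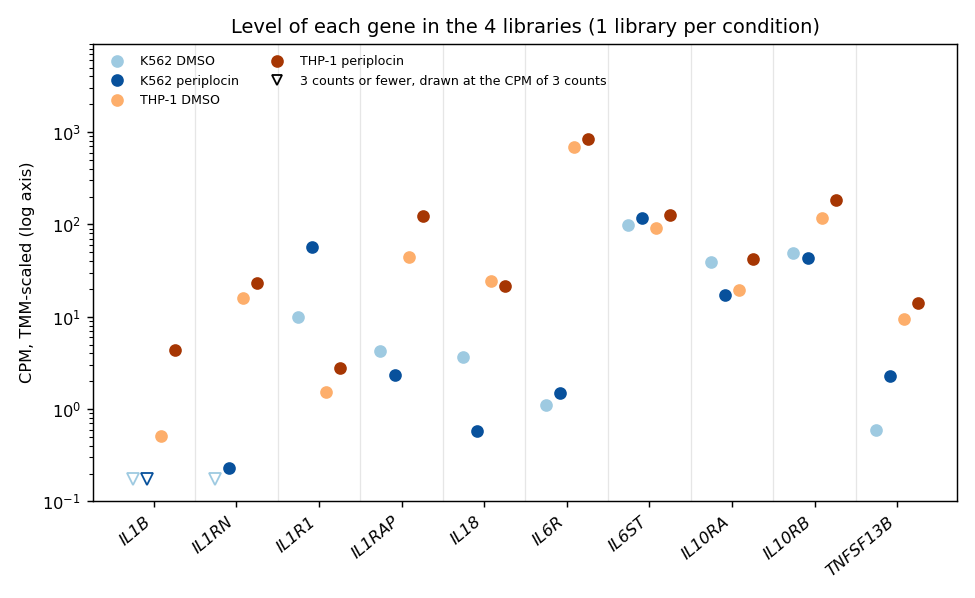
Level of each of the 10 genes in CPM (log axis) in the 4 libraries, with 1 point per library and no error bar because there was 1 library per condition. Open triangles mark 3 counts or fewer. IL6R and IL1RN are far lower in K562 than in THP-1, whereas IL6ST lies between 92.1 and 128 CPM in every library. IL1B stands well above the floor only in treated THP-1.

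Promoter sequences are shown for genes whose responses are described below, to place the start sites on the genome. They are from RefSeq on GRCh38.p14, and 9 of the 10 genes had an entry, with 15 windows of 250 bases upstream of a start. IL18 is named only. The stretches printed hold no annotated exon, run 5′ to 3′ along the gene, and have motif matches on either strand in capitals. Those of IL1B (chr2:112836904-112837029, minus strand), IL1RAP (chr3:190513835-190514050, plus strand), IL6ST (chr5:55994994-55995166, minus strand) and IL10RA (chr11:117989695-117989944, plus strand) were chosen because IL1B and IL1RAP had the highest ratios in THP-1, IL10RA went opposite ways in the lines and IL6ST was nearly level. The IL10RA window belongs to a start at 117989945, inside the span that GENCODE 29 gives the gene. It thus lies downstream of the first base of that span, 117986348, and the sequence upstream of that base was not searched. The starts used for IL1B (112836779), IL1RAP (190514085) and IL6ST (55994963) also lie inside their spans. The stretches printed for these genes lie just outside the spans.
IL1B: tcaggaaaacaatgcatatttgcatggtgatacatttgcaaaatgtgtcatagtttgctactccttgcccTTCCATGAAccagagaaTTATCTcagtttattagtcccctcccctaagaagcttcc
IL1RAP: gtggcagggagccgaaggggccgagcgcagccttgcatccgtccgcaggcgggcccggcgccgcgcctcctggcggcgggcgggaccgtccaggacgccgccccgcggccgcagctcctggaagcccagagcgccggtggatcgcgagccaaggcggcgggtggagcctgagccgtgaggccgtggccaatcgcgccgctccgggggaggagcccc
IL6ST: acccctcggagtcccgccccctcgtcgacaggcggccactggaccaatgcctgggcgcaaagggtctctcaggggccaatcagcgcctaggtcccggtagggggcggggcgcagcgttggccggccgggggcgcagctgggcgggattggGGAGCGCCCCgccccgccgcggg
IL10RA: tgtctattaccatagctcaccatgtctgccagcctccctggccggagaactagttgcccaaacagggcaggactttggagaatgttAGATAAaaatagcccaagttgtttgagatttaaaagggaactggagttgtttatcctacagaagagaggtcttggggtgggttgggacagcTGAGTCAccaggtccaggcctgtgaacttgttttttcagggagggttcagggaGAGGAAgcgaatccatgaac

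The motifs searched were the NF-κB consensus, TGANTCA (bound by AP-1), TTCNNNGAA (bound by STAT factors), AGATAA or TGATAA (bound by GATA factors) and GAGGAA (bound by PU.1). Of 35116 RefSeq windows of the same length, 9.96% held the NF-κB consensus, 6.57% TGANTCA, 6.57% TTCNNNGAA, 14.6% AGATAA or TGATAA and 23.6% GAGGAA. The IL10RA window held TGANTCA at -73 to -67, AGATAA at -164 to -159 and GAGGAA at -20 to -15 from the start. The IL1B window held TTCNNNGAA at -180 to -172 and, as its reverse complement, AGATAA at -163 to -158. The only NF-κB match among the 15 windows was in IL6ST at -53 to -44, and the IL1RAP window held none of the 5 motifs. No matches overlapped in the sequences shown. Counted from the start, those sequences cover -250 to -125 (IL1B), -250 to -35 (IL1RAP), -203 to -31 (IL6ST) and -250 to -1 (IL10RA). These matches are descriptions of letters, and the data hold no measurement of factor binding.

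Among the ligands, IL1B (ENSG00000125538; chromosome 2, 112829751 to 112836903, minus strand) was nearly silent in K562 and higher with periplocin in THP-1. It had 0 counts in untreated and 1 in treated K562, and 10 in untreated and 74 in treated THP-1, or 0, 0.0575, 0.506 and 4.37 CPM. Only the treated THP-1 library stood well above the floor. The THP-1 difference was 8.29-fold, a log2 ratio of 3.05 with a 95% counting interval from 2.15 to 4.23, which placed IL1B above 98.8% of the genes compared in that line. Both K562 libraries were at or under the floor, so no fold is given there. At baseline IL1B was 2.88-fold higher in THP-1 DMSO than in K562 DMSO with the latter set to the floor. The counting interval of that comparison, from 10 and 0 counts, started at 0.95 on the log2 scale, just under 2-fold.

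IL1RN (ENSG00000136689; chromosome 2, 113107214 to 113134016, plus strand), whose product blocks the IL-1 receptor, had 0, 4, 317 and 393 counts in the same order, or 0, 0.230, 16.0 and 23.2 CPM. The antagonist was thus a THP-1 transcript, 91.3-fold higher there at baseline with K562 DMSO set to the floor. The counting interval of that comparison started at 6.21 on the log2 scale. In THP-1 its ratio to DMSO was 0.53 on the log2 scale (interval 0.32 to 0.75), or 1.45-fold. The K562 libraries held fewer than the 10 counts set for a comparison. Since IL1B differed more than IL1RN, the number of IL1RN counts per IL1B count in THP-1 was 31.7 in DMSO and 5.31 in periplocin, the first of these resting on 10 IL1B counts. The 2 genes share chromosome 2 with IL1R1.

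IL18 (ENSG00000150782; chromosome 11, 112143251 to 112164117, minus strand) went the other way in K562. It had 63 counts in untreated and 10 in treated K562, and 480 in untreated and 361 in treated THP-1, or 3.69, 0.575, 24.3 and 21.3 CPM. The K562 periplocin level was 6.16-fold lower than in DMSO, with a log2 ratio of -2.62 (interval -3.81 to -1.71) that only 1.76% of the genes compared in K562 fell below. In THP-1 the ratio was -0.19 with an interval from -0.39 to 0.01, which includes equality. IL18 was 6.54-fold higher in THP-1 than in K562 at baseline.

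TNFSF13B (ENSG00000102524; chromosome 13, 108251240 to 108308484, plus strand), the gene of BAFF, was higher with periplocin in both lines, though only K562 passed 2-fold. It had 10 and 40 counts in the K562 pair, 186 and 237 in the THP-1 pair, or 0.586, 2.30, 9.41 and 14.0 CPM. The K562 ratio was 3.79-fold, 1.92 on the log2 scale, and its interval from 0.95 to 3.14 reaches just under 2-fold because the DMSO library held 10 counts. The THP-1 ratio was 1.49-fold, 0.57 on the log2 scale (interval 0.29 to 0.86). The treated K562 library still lay below both THP-1 libraries, and at baseline THP-1 was 15.3-fold higher.

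Of the receptors, IL1R1 (ENSG00000115594; chromosome 2, 102064544 to 102179874, plus strand), the signalling receptor for IL-1, had the highest ratio among the 8 genes with at least 10 counts in the K562 pair. It had 168 counts in untreated and 995 in treated K562, and 30 in untreated and 47 in treated THP-1, or 9.84, 57.2, 1.52 and 2.78 CPM. K562 was the high line for this receptor, and THP-1 DMSO lay 6.40-fold below K562 DMSO. The response was 5.80-fold in K562, 2.54 on the log2 scale (interval 2.30 to 2.78), above 98.0% of the genes compared. In THP-1 it was 1.82-fold, 0.86 on the log2 scale (interval 0.18 to 1.58). IL1R1 exons overlap the antisense gene IL1R1-AS1, and the library kit named in the labels does not mark strand, so reads of that gene are not separated from those of IL1R1.

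IL1RAP (ENSG00000196083; chromosome 3, 190514051 to 190659750, plus strand), the partner chain that IL1R1 needs to signal, was the reverse of IL1R1 in its high line and in its K562 direction. In THP-1 both chains were higher with periplocin. IL1RAP had 73 counts in untreated and 41 in treated K562, and 877 in untreated and 2099 in treated THP-1, or 4.28, 2.36, 44.4 and 124 CPM. THP-1 was the high line, by 10.3-fold at baseline. Periplocin was associated with 2.79-fold more IL1RAP in THP-1, 1.48 on the log2 scale (interval 1.37 to 1.60). In K562 the ratio was -0.85 (interval -1.45 to -0.29), lower than in DMSO but under 2-fold. So the receptor pair was unequal in each line, and in K562 the chain that was more abundant at baseline had the higher ratio. In THP-1 the point values had the same order. There the interval of IL1R1, 0.18 to 1.58, overlapped that of IL1RAP, so the counts do not settle which ratio was higher. IL1RAP shares exon positions with AC108747.1 on the same strand, which makes the division of reads between them uncertain.

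IL6R (ENSG00000160712; chromosome 1, 154405193 to 154469450, plus strand), the IL-6 binding chain, separated the lines more than any of the other genes that were above the floor in all 4 libraries. It had 19 and 26 counts in the K562 pair, 13545 and 14208 in the THP-1 pair, or 1.11, 1.5, 686 and 840 CPM. The baseline difference was 600-fold, 9.23 on the log2 scale (interval 8.62 to 9.999). The response was small in THP-1, at 0.29 (interval 0.26 to 0.33), and in K562 it was 0.42 with an interval from -0.48 to 1.36, so that a difference was not detectable at this depth.

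IL6ST (ENSG00000134352; chromosome 5, 55935095 to 55994993, minus strand), the chain through which IL-6 and its relatives signal, was even across the libraries. It had 1702 and 2031 counts in the K562 pair and 1820 and 2161 in the THP-1 pair, or 99.7, 117, 92.1 and 128 CPM. The log2 ratio was 0.23 in K562 (interval 0.13 to 0.32) and 0.47 in THP-1 (interval 0.38 to 0.56), and the lines differed by -0.11 at baseline (interval -0.21 to -0.02). All 3 values were under 2-fold. IL6ST overlaps the antisense gene AC008914.1, with the same limit as for IL1R1.

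IL10RA (ENSG00000110324; chromosome 11, 117986348 to 118003037, plus strand), the ligand-binding chain of the IL-10 receptor, was the only one of the 8 genes compared in both lines that passed 2-fold in both, and it went in opposite directions. It had 671 counts in untreated and 298 in treated K562, and 385 in untreated and 712 in treated THP-1, or 39.3, 17.1, 19.5 and 42.1 CPM. The treated THP-1 level was close to the untreated K562 level, and the treated K562 level was close to the untreated THP-1 level. Periplocin went with a 2.29-fold lower level in K562, -1.20 on the log2 scale (interval -1.40 to -0.998), and with a 2.16-fold higher level in THP-1, 1.11 (interval 0.93 to 1.29). At baseline THP-1 was 2.02-fold below K562, -1.01 on the log2 scale (interval -1.20 to -0.83). Both intervals of the response reach just under 2-fold, so neither call holds where the whole interval must pass it. Among all genes, 12.9% were at least 2-fold lower in K562 and 9.69% at least 2-fold higher in THP-1. The share of all genes that did both was not computed.

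IL10RB (ENSG00000243646; chromosome 21, 33266358 to 33310187, plus strand), the second chain of that receptor and also part of other cytokine receptors, had 838 and 746 counts in the K562 pair and 2329 and 3076 in the THP-1 pair, DMSO first, or 49.1, 42.9, 118 and 182 CPM. It was 2.40-fold higher in THP-1 than in K562 at baseline. The log2 ratio to DMSO was -0.19 in K562 (interval -0.34 to -0.05) and 0.62 in THP-1 (interval 0.55 to 0.70), which kept the signs of IL10RA at smaller sizes. IL10RB exons are shared with AP000295.1 on the same strand, so its level is uncertain to the extent that reads were divided between them.

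**Figure D2:**
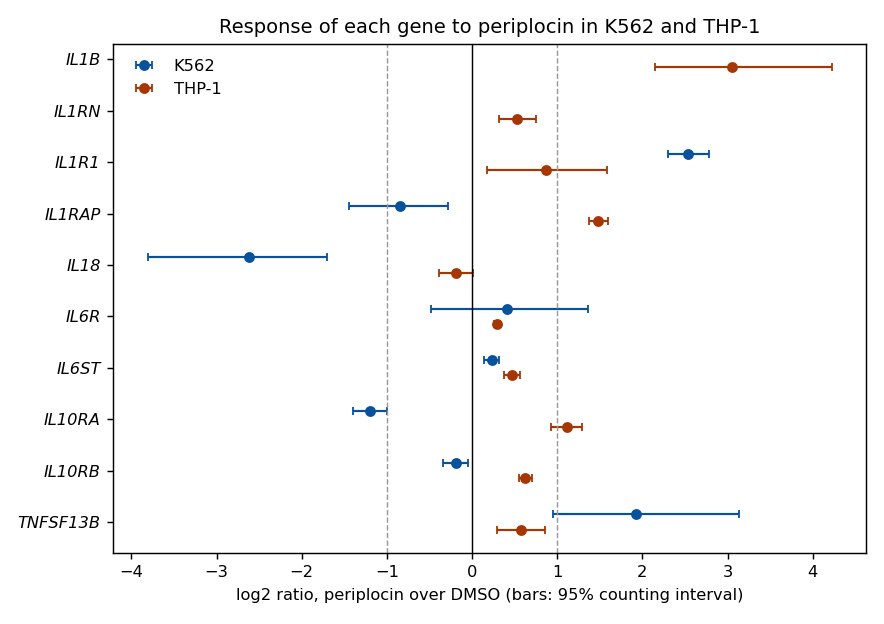
Log2 ratio of periplocin over DMSO for each gene in K562 and in THP-1, with bars for the 95% counting interval and dashed lines at 2-fold. IL1B and IL1RN have no K562 point because those libraries held fewer than 10 counts. IL1RAP, IL10RA and IL10RB lie below 0 in K562 and above 0 in THP-1.

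In K562, 8 of the 10 genes had the 10 counts needed for a comparison. IL1R1 and TNFSF13B were at least 2-fold higher, IL18 and IL10RA at least 2-fold lower, and 4 were under 2-fold. Among all 13075 genes compared, 10.6% were at least 2-fold higher and 12.9% at least 2-fold lower. The counting interval lay wholly above equality for 3 of the 8 genes and wholly below for 4, against 36.5% and 37.1% of all genes. Their median log2 ratio was 0.02, and that of all genes was -0.02.

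In THP-1 all 10 genes were compared, and IL1B, IL1RAP and IL10RA were at least 2-fold higher, 0 were at least 2-fold lower and 7 were under 2-fold. Of all 13679 genes, 9.69% were at least 2-fold higher and 12.3% at least 2-fold lower. The interval lay wholly above equality for 9 of the 10, every gene but IL18, against 35.3% of all genes, and wholly below for 0, against 37.8%. The median log2 ratio was 0.60, and that of all genes was -0.03. These 10 genes were picked by name with results of these data known, so the counts describe them and carry no test.

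At baseline, 7 of the 10 genes were at least 2-fold higher in THP-1 DMSO than in K562 DMSO, IL1R1 and IL10RA were at least 2-fold lower, and IL6ST was under 2-fold. The counting intervals of IL1B (from 0.95 upward) and IL10RA (-1.20 to -0.83) reach inside 2-fold. Among all 14137 genes compared, 24.8% were at least 2-fold higher and 22.0% at least 2-fold lower. The median log2 ratio was 3.04 for the 10 genes and 0.04 for all genes. It was 2.12 for the 10 genes when the K562 DMSO counts of IL1B and IL1RN were set to the floor.

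**Figure D3:**
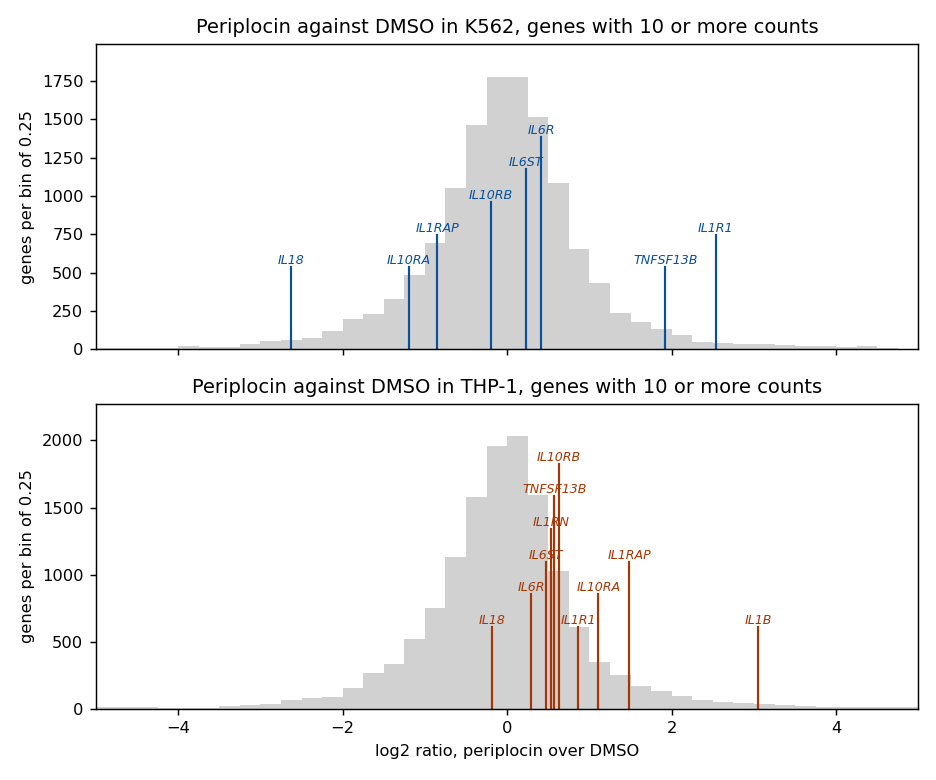
Distribution of log2 ratios of periplocin over DMSO for all genes with 10 or more counts in K562 (top) and THP-1 (bottom), in bins of 0.25, with a line at the ratio of each of the 10 genes (line height carries no value). In K562 the 8 lines spread from -2.62 to 2.54, and in THP-1 they spread from -0.19 to 3.05.

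The responses of the lines were set against each other as the THP-1 log2 ratio minus the K562 log2 ratio. Of the 8 genes compared in both lines, IL1RAP, IL18 and IL10RA had a THP-1 response above the K562 response by at least 1, and IL1R1 and TNFSF13B had one below it by at least 1. Over all 12030 genes compared in both lines, 13.0% and 11.6% did so. The difference was 2.33 for IL1RAP (SE 0.29 from counts, interval 1.77 to 2.89), 2.44 for IL18 (SE 0.49, interval 1.47 to 3.40) and 2.31 for IL10RA (SE 0.14, interval 2.04 to 2.57). It was -1.67 for IL1R1 (SE 0.36, interval -2.37 to -0.98) and -1.35 for TNFSF13B (SE 0.52, interval -2.37 to -0.33). For IL10RB it was 0.82 (SE 0.08, interval 0.66 to 0.98) and for IL6ST 0.24 (SE 0.07, interval 0.11 to 0.37). For IL6R it was -0.12 (SE 0.43), and its interval of -0.97 to 0.72 includes 0. With 1 library per condition these differences were not tested against biological spread.

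A treatment effect shared by the lines was tested with edgeR's quasi-likelihood test over all 4 libraries, in which the disagreement of the lines is the only error and 1 residual degree of freedom remains. Of 13584 genes, 0% (0 genes) had an adjusted p under 0.05 and 1535 had an unadjusted p under 0.05, while DESeq2 called 131. Among the 10 genes, IL1R1 had a shared log2 fold change of 1.80 (higher in 2 of 2 lines) with an unadjusted p of 0.0136 and an adjusted p of 0.376 by edgeR's quasi-likelihood test. For IL1B the same test gave 3.12, an unadjusted p of 0.0254 and an adjusted p of 0.391, but its K562 libraries held 0 and 1 counts. The adjusted p of the other 8 genes by that test ran from 0.509 for TNFSF13B to 0.990 for IL10RA, whose opposite responses left a shared log2 fold change of -0.03. None of the 10 genes passed the threshold in either test, and DESeq2 gave no adjusted p for IL1B.

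To compare levels between genes, CPM was divided by the length in kilobases of each gene's longest coding transcript in GENCODE 29. Which transcripts the cells made was not measured, so the order between genes depends on these lengths. In K562 DMSO the order was led by IL10RB at 23.0 CPM per kb, IL6ST at 11.0 and IL10RA at 10.6, the last of which overlapped in their intervals. IL18 followed at 3.22, IL1R1 at 1.91 and IL1RAP at 0.790, each apart from its neighbours, and then TNFSF13B at 0.224 and IL6R at 0.188, which overlapped, with IL1RN and IL1B at 0. In K562 periplocin IL10RB (20.1) and IL6ST (12.9) still led, IL1R1 came next at 11.1, and IL10RA was at 4.64. Below it, from TNFSF13B at 0.880 to IL1B at 0.0353, each gene overlapped with the next. By this measure the shared IL-6 chain and IL10RB were above the other 8 genes in treated K562. Before division by length, IL1R1 at 57.2 CPM was above IL10RB at 42.9 CPM there.

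In THP-1 DMSO the order per kb was IL6R at 116, IL10RB at 55.3, IL18 at 21.2 and IL6ST at 10.2, each apart from its neighbours. IL1RN at 8.35 and IL1RAP at 8.20 overlapped, and IL10RA at 5.27 and TNFSF13B at 3.60 followed. IL1B at 0.310 and IL1R1 at 0.295 were lowest and overlapped. In THP-1 periplocin IL6R (142) and IL10RB (85.3) still led, IL1RAP was the third at 22.9 and IL18 the fourth at 18.6, followed by IL6ST at 14.1. IL1RN at 12.1 and IL10RA at 11.4 overlapped, and below TNFSF13B at 5.36 IL1B at 2.68 now stood apart from IL1R1 at 0.540. The IL-10 receptor chains were unequal in each library, with IL10RB above IL10RA throughout.

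The pattern of IL10RA over the 4 libraries was compared with that of 9777 other genes of at least 10 CPM on average, by the Euclidean distance of log2 CPM centred on each gene. The nearest were TRIM38 at a distance of 0.19, CLIP1 at 0.24 and PLEC at 0.28. TRIM38 had 1266 and 614 counts without and with the drug for K562, then 838 and 1320 for THP-1. CLIP1 had 2221, 864, 1355 and 2069, and PLEC 7212, 2935, 4963 and 7938. Each was lower with periplocin in K562 and higher in THP-1, as IL10RA was. That follows from choosing them by nearness to IL10RA over the same 4 libraries, so it is no separate result.

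Genes of the surrounding pathways were read from 10 lists with 93 genes in all. In K562, 57 of them were compared, of which 8 were at least 2-fold higher and 11 lower, with a median log2 ratio of -0.10. In THP-1, 57 were compared, 11 were at least 2-fold higher and 1 lower, with a median of 0.53 and intervals wholly above equality for 37 and below for 7. The corresponding counts of intervals in K562 were 18 above and 25 below. The lists and the 10 genes thus both had a median near that of all genes in K562 and above it in THP-1. Of all genes, 10.6% were at least 2-fold higher and 12.9% lower in K562, and 9.69% and 12.3% in THP-1. Intervals lay wholly above equality for 36.5% and below for 37.1% in K562, and for 35.3% and 37.8% in THP-1. The same shares apply to the counts by list below.

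Other IL-1 family ligands were scarce. Of 8, only IL1A in K562 had the counts for a comparison, at 8 in DMSO and 3 in periplocin, with an interval from -3.99 to 0.62. Of 9 further IL-1 family receptors and decoys, 4 were compared in each line, with a median of 0.76 in K562, where 1 was at least 2-fold higher, and 0.95 in THP-1, where 2 were. Of these, SIGIRR, an inhibitory receptor of the family, had 109 and 382 counts in K562 (log2 ratio 1.78) and 339 and 264 in THP-1. IL1R2, the decoy receptor that binds IL-1 without signalling, had 1 and 1 counts in K562 and 0 and 20 in THP-1. The THP-1 difference was 7.79-fold with DMSO set to the floor, and its counting interval started at 2.53 on the log2 scale. IL18R1, the receptor for IL-18, had 118 and 112 counts in K562 and 5 and 11 in THP-1. These 3 receptors and IL1A were named after their values were seen.

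Signalling below the IL-1 receptor was under 2-fold for all 11 genes in K562 (median 0.04), whereas 2 of 11 were at least 2-fold higher in THP-1 (median 0.29). IRAK2, a kinase-like adaptor of the receptor complex, had 42 and 237 counts in THP-1, a log2 ratio of 2.71 (interval 2.24 to 3.23), and 95 and 149 in K562, a ratio of 0.62. The other was MYD88, the adaptor that joins the receptor to the IRAK proteins, which had 862 and 1866 counts in THP-1 (1.34) and 1179 and 1298 in K562 (0.11) and was named after its values were seen.

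Of 13 genes of the inflammasomes and of IL-1 processing, 8 were compared in K562, with 3 at least 2-fold higher, 2 lower and a median of 0.15. In THP-1 11 were compared, with 2 higher, 0 lower and a median of 0.39. NLRP1, a sensor that activates caspase-1, was higher in both lines, with 1642 and 6765 counts for K562, a log2 ratio of 2.02 (interval 1.94 to 2.09), and 107 and 281 in THP-1, a ratio of 1.61 (interval 1.29 to 1.95). CASP1, the protease that cuts the IL-1 beta and IL-18 precursors, had 7 and 12 counts in K562 and 839 and 944 in THP-1. NLRP3 had 1 and 0 counts in K562 and 2528 and 2466 in THP-1, and the adaptor PYCARD 1 and 0 against 1125 and 1040. These 3 transcripts, like IL1B, were thus at 12 counts or fewer in the K562 libraries, and they were named after their values were seen.

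Of 9 IL-6 family ligands, 5 were compared in K562, with 1 at least 2-fold higher, 2 lower and a median of -0.98, and 3 in THP-1, with 1 higher and a median of 0.77. IL6, the ligand of IL6R, had 195 and 50 counts in K562, a log2 ratio of -1.98 (interval -2.47 to -1.54), and 0 and 1 in THP-1. The line with the ligand transcript was therefore the one with little IL6R, at 19 and 26 counts. CNTF, a further ligand of the family, was at least 2-fold higher in both lines, with 21 and 139 counts in K562 (2.67) and 31 and 82 in THP-1 (1.61). Of 6 other IL-6 family receptors, 4 were compared in each line, with 1 higher in K562 (median 0.01) and 2 higher and 1 lower in THP-1 (median 1.03). IL11RA, the receptor for IL-11, was past 2-fold in both, with 52 and 158 counts in K562 (1.57) and 147 and 284 in THP-1 (1.17). The listed genes at least 2-fold higher in both lines were NLRP1, CNTF and IL11RA, with 57 listed genes, not all the same, compared in each line. Of all 12030 genes compared in both lines 2.40% were, and of the 8 such genes among the 10, 0 were.

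Of 15 IL-10 family and class II receptor genes, 5 were compared in each line, with 1 lower in K562 (median -0.40) and 1 higher in THP-1 (median 0.78). IL20RB, a receptor chain for IL-20 family cytokines, had 1731 and 128 counts in K562, a log2 ratio of -3.78 (interval -4.05 to -3.52), and 25 and 37 in THP-1. The JAK-STAT3 list had 10 of 10 compared in each line, with 1 higher and 3 lower in K562 (median -0.41) and 1 higher in THP-1 (median 0.41). SOCS3, a feedback inhibitor of cytokine receptors that binds the IL6ST chain, had 63 and 265 counts in THP-1, a log2 ratio of 2.29 (interval 1.90 to 2.72), and 271 and 157 in K562, a ratio of -0.81 (interval -1.11 to -0.53). Receptor shedding proteases had 0 past 2-fold among 5 in K562 (median -0.17) and among 6 in THP-1 (median 0.51). Of the BAFF and APRIL system, 4 were compared in K562, with 1 higher, 2 lower and a median of -0.79, and 3 in THP-1, with 0 past 2-fold and a median of 0.53. TNFRSF13C, the BAFF receptor, had 52 and 13 counts in K562 and 62 and 45 in THP-1, so TNFSF13B and its receptor went opposite ways in K562. TNFRSF13C was named after its values were seen.

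**Figure D4:**
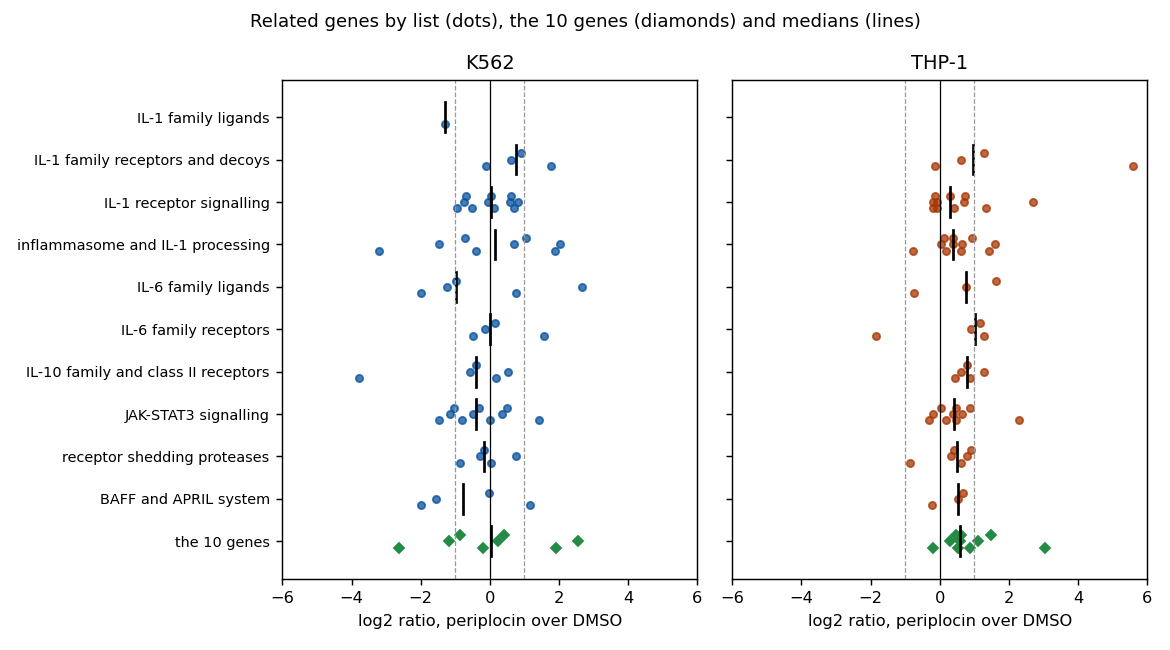
Log2 ratio of periplocin over DMSO for the genes of the 10 lists (dots) and the 10 genes described (diamonds) in K562 (left) and THP-1 (right), with black lines at medians and dashed lines at 2-fold. In THP-1 the list medians lie above 0 where a list had genes to compare, between 0.29 and 1.03, and in K562 they lie on both sides of 0.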

How the data were processed

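Poly-A RNA from K562 and THP-1 cells, 1 library per line and treatment, was sequenced with paired-end reads. The authors deposited 1 table of expected counts per gene, not normalized and not pooled. Between 87.4% and 88.3% of the expected counts are whole numbers, and they were rounded here. The submitters' processing notes name HISAT2, StringTie 1.3.1 and hg38 without their roles, and the program that made the counts is not given in the sources used here. If reads shared by genes were divided, counts are not independent reads and the intervals are the least error possible. The table holds Ensembl identifiers, and symbols were found for 20310 of 20348 genes. It held 0 columns that were not used.

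TMM factors over the 4 libraries came from edgeR 4.0.16 in R 4.3.3. Log2 ratios add 0.5 to each count, with exact binomial 95% intervals, and genes with at least 10 counts in the pair were compared at 2-fold. The SE of a difference between lines was computed from the counts. The shared effect was fitted by edgeR's quasi-likelihood test with cell line and treatment, on genes that reached 10 counts in 2 or more libraries, with Benjamini-Hochberg adjustment at 0.05. DESeq2 1.42.0 was an alternative. It left the adjusted p of 2371 genes blank, and these were not counted as calls. The steps were first tested on simulated counts that had counting error only and the same changes in both lines. That test could not show how the steps perform with biological spread or with lines that respond differently. Python 3.11.15 with pandas 2.3.3 and scipy 1.17.1 was used for ratios and intervals. Positions are from GENCODE 29 on GRCh38, and exon overlaps were read from it.

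The rule for genes named beyond the 10 takes list genes past 2-fold in both lines, the 3 with the largest ratio in each line among those of at least 5 CPM, and the 3 nearest genes of any of the 10 past 2-fold in both lines. Genes outside it are marked in the text as named after their values were seen. The 10 genes and the lists were chosen with earlier results of these data known. Alternatives were other scaling, other counts added, other filters, a 4-fold limit, the whole interval past 2-fold and unrounded counts.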

Additional observations from a re-analysis of the deposited data

Results flagged for a closer look

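The difference in response between the lines drew attention for 3 of the 8 genes compared in both lines. For these 3 the counting interval lay wholly below equality in K562 and wholly above it in THP-1. Among all genes, 37.1% lay wholly below equality in K562 and 35.3% wholly above it in THP-1. The share of all genes that did both was not computed, so the flag cannot show whether these 3 genes stand apart from all genes. The THP-1 log2 ratio exceeded the K562 log2 ratio by 2.33 for IL1RAP, by 2.31 for IL10RA and by 0.82 for IL10RB. The difference was not tested against biological spread, since each condition had 1 library.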

How the results depend on the processing

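Of 168 log2 ratios of the 10 genes under alternatives, 165 stayed within their counting interval and 0 reversed. For IL1B and IL1RN in THP-1 DMSO against K562 DMSO the interval has no upper end, because the K562 count is 0, and the ratio followed the count added: they were 4.18 and 9.10 with 0.5 added, 6.13 and 11.10 with the smaller count tried, and 2.37 and 7.11 with 2 added. Those outside were IL6R in THP-1 at 0.33 with DESeq2 size factors, and IL6ST at -0.24 and IL10RB at 1.14 in THP-1 DMSO against K562 DMSO with total counts, a scaling that moved the median of all genes in that comparison from 0.04 to -0.08. A limit of 4-fold kept 2 of the 10 genes in K562 and 1 in THP-1, and 857 of all genes in K562, 831 in THP-1 and 3976 between the lines. The main counts were 3070, 3001 and 6620. Asking for the whole interval past 2-fold kept 2 of the 10 genes in K562, 2 in THP-1, and 1641 and 1530 of all genes. IL10RA lost its call in both lines under either limit. Between the lines at baseline, either limit kept 7 of the 10 genes, against 9 in the main comparison. A mean of at least 1 CPM in the pair kept 8. No filter on low counts gave 5135 and 4607 of all genes, and 6 of the 10 genes in K562, with IL1B and IL1RN added at 4 counts or fewer. For the shared effect, which pairs DMSO with periplocin within each line, edgeR's quasi-likelihood test called 0 genes, 1 with total counts, 1 without the filter and 0 without the cell line as a block (no replicate block), and DESeq2 called 131. Leaving out a library would leave a line without its pair, so none was left out. Depth limits IL1B, IL1RN, IL18, IL6R and TNFSF13B in K562, where at least 1 library held 20 counts or fewer.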
